A study of Mus musculus with 24 samples.

Results

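The stage change examined here is the step from round to condensing spermatids in mice whose spermatids carry a knockdown of both Cbp and p300. It was read from 12 of the 24 arrays of the series: 6 arrays of condensing knockdown spermatids (numbered 19 to 24 in the labels) against 6 of round knockdown spermatids (numbered 7 to 12). The arrays were chosen by their titles alone. Wild-type condensing and wild-type round spermatids, 6 arrays each, served for comparison. All samples came from adult mice aged 7 weeks. The labels describe the knockdown as post-meiotic and name neither the promoter that drives it nor the strain. They do not say whether the replicates are separate animals or pools, so the p-values measure only the spread between these samples. Biotin-labelled cRNA from 200 ng of total RNA was hybridised to Illumina bead arrays with 45281 probes, and the labels give an RNA integrity number of at least 7 for every sample.

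Round spermatids are haploid cells that have finished meiosis and still transcribe widely, while their DNA is wrapped around histones. In condensing spermatids the histones are acetylated and replaced by transition proteins and then by protamines, transcription stops, and many proteins are made from messenger RNA stored earlier. The genes Crebbp and Ep300 encode Cbp and p300, enzymes that acetylate histones and other proteins and can be recruited to promoters by factors such as CREB and CREM.

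Values below are log2 intensities after background correction and quantile normalization, and changes are condensing minus round in the knockdown, with the standard error of a limma model of all 24 arrays (6 per group). A gene was called at a Benjamini-Hochberg adjusted p under 0.05 over 10759 genes. Stage was the main axis of variation among the 12 knockdown arrays and carried 73.6% of the variance. Condensing arrays correlated with each other at 0.987 to 0.993, round arrays at 0.971 to 0.995, and arrays of opposite stages at 0.904 to 0.951. The round arrays were spread along the next axis (9.27% of the variance). Arrays 8 and 10 lay at its low end (-24.7 and -25.1) and arrays 11 and 12 at its high end (24.5 and 23.4). Arrays 7 and 9 lay between them (7.58 and 9.74). On arrays 8 and 10 the respiratory chain list averaged 9.27 and 9.55 log2, against 9.78 to 10.3 on the other round knockdown arrays. The ribosomal protein list averaged 10.2 and 10.5 there, against 10.7 to 11.3. On round wild-type arrays these lists also ranged widely, from 9.46 to 10.32 and from 10.44 to 11.27. Of the defining spermatid genes, Tnp1, Prm1 and Odf1 read above 14 on all 12 arrays. Tnp2 read 10.57 to 12.40 and Spata18 12.88 to 13.92. Acrv1 and Akap4 also belong to this set, and their levels are not given here. Prm2 had no probe among those used. The highest normalized value of an array was 15.1 to 15.2, so the brightest spermatid genes lie close to the top of the scale and their fold changes are not exact.

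Crebbp and Ep300 are the targeted genes. Crebbp read 5.04, 5.78 and 6.21 log2 (lowest, median and highest of 6 arrays) in condensing knockdown spermatids, against 6.96, 7.27 and 7.80 in round knockdown spermatids. Every condensing array was below every round array, and Crebbp fell (-1.61 ± 0.17, adjusted p = 3.17e-09), or 3.05-fold. Ep300 read 6.42, 6.49 and 6.80 log2 (lowest, median and highest of 6 arrays) in condensing knockdown spermatids, against 7.54, 7.83 and 8.52 in round knockdown spermatids. Ep300 fell (-1.39 ± 0.17, adjusted p = 3.59e-08), or 2.63-fold, again without overlap. Other probes changed by -1.80 for Crebbp and by -0.57 for Ep300, so the fold of Ep300 depends on the probe. In wild type the same main probes changed by -1.48 and -1.32, and the stage change did not differ detectably between genotypes (differences of -0.12 and -0.07, adjusted p = 0.951 and 0.976). Neither gene separated the genotypes: Crebbp averaged 5.70 ± 0.41 in condensing knockdown and 5.81 ± 0.20 in condensing wild-type spermatids, and 7.31 ± 0.38 in round knockdown and 7.30 ± 0.22 in round wild-type spermatids (SD, n = 6 each). Ep300 averaged 6.55 ± 0.14 in condensing knockdown and 6.57 ± 0.27 in condensing wild-type spermatids, and 7.94 ± 0.39 in round knockdown and 7.89 ± 0.38 in round wild-type spermatids. The levels therefore do not check the genotype labels.

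The stage change reached most of the transcriptome. In condensing knockdown spermatids 3282 of 10759 genes rose (30.5% of those tested) and 3481 fell (32.4%), with a median change of -0.01. The counts of list members below are to be read against these shares. At least 2-fold, 1132 genes rose and 854 fell, and at least 4-fold, 184 rose and 21 fell. The balance at 2-fold turned (710 higher, 1826 lower) when arrays were scaled to the median of all probes. Without background correction 451 genes were at least 2-fold higher and 269 lower, and the authors' normalized table gave 485 higher and 303 lower. The condensing and round arrays did not overlap for 2102 genes that were higher in condensing spermatids (19.5%) and 2283 that were lower (21.2%). Without round arrays 8 and 10, 3086 rose and 3362 fell. The balance of directions rests on the scaling: scaling to the median of probes detected on every array put the median gene at 0.25 and 64.7% of calls higher (4915 against 2681), scaling to the median of all probes put it at -0.23 and 32.4% of calls higher (2304 against 4807), against 48.5% here. All changes below are therefore relative to the median gene. Among the genes named below, the calls of Brdt, H3f3a, Slc2a3, Atp5b, Crat, Ptdss2, Fn1, Ldha and Cox6b2 were lost with scaling to the median of detected probes. The probes of 65 genes were detected on all 6 condensing knockdown arrays and on no round knockdown array, and those of 96 genes showed the opposite. Array intensities are relative amounts in total RNA, so a change in the share of cells of a type and a change in RNA per cell cannot be told apart.

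The size of a change also rests on the background correction, which stretches low values. Without it, the changes of 41 of 130 named genes were smaller by over 1.5-fold, among them Crebbp (-0.69), Ep300 (-0.78), Gstp1 (1.72), Cycs (1.72), Echs1 (0.99) and Ebp (0.56), and in the authors' table those of 33. The mean over all probes of a gene put Cycs at 1.19. Some probes were detected on part of a group, so their folds are not exact. On round knockdown arrays these were Ebp (1 of 6), Pdha1 and Ccl4 (2 of 6), Hdac6 and Pdk1 (3 of 6), Alas2, Pfkl, Echs1, Ddit4 and Gria1 (4 of 6), and Gamt, Mgp and Fn1 (5 of 6). On condensing knockdown arrays they were Cacna2d1 and Hspa4l (3 of 6), Ovgp1 (4 of 6), and Crebbp, Ccl4 and Gria1 (5 of 6).

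The steepest rises included hemoglobin genes. Hba-a1 read 14.16, 14.30 and 14.49 log2 (lowest, median and highest of 6 arrays) in condensing knockdown spermatids, against 6.99, 8.28 and 9.18 in round knockdown spermatids, and the groups lay far apart. This alpha globin gene rose by 6.09 ± 0.31 (adjusted p = 1.34e-15), a 68-fold change, and Hbb-bt and Hbb-bs, which encode beta globin, rose by 5.80 ± 0.29 and 5.76 ± 0.30. Further probes rose by 4.57 to 6.29 for Hbb-bt and by 5.83 to 6.74 for Hbb-bs. Near-identical globin genes can share a probe, so the values of these 3 genes are not independent. Defb45, a beta-defensin, rose by 3.98 ± 0.19, Alas2, the erythroid enzyme of heme synthesis, by 3.87 ± 0.12, and Cst12, a cystatin of Sertoli cells, by 3.82 ± 0.19. With the marker lists of other cells set aside, the next largest rises were Defb36, another beta-defensin (3.45 ± 0.21), Gamt, an enzyme of creatine synthesis (3.28 ± 0.21), Fxyd6, a regulator of the sodium pump (3.26 ± 0.11), the phosphatase gene Ppm1m (3.13 ± 0.11) and the membrane protein gene Tmem184a (3.11 ± 0.11). Fxyd6 read 10.48, 10.66 and 10.74 log2 on condensing arrays, against 7.16, 7.38 and 7.60 on round arrays, which places every condensing array more than 2 log2 units above the round ones. Another Tmem184a probe rose by 2.02, and another Ppm1m probe by 2.85 and a further one by 0.46. By limma, no rise among these 11 had an adjusted p above 1.19e-13. The marker lists do not hold every gene of other cells, and the part of such cells in these rises was not tested.

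Falls were shallower. Speer4a and Speer4e belong to a multicopy family transcribed in spermatids. Speer4a read 7.40, 7.84 and 7.92 log2 (lowest, median and highest of 6 arrays) in condensing knockdown spermatids, against 9.86, 10.10 and 10.22 in round knockdown spermatids. Speer4a fell (-2.29 ± 0.10, adjusted p = 1.27e-16), and Speer4e also fell (-2.33 ± 0.19, adjusted p = 2.79e-11), with no overlap between stages. Ovgp1, an oviduct glycoprotein gene, fell (-2.31 ± 0.17), and another probe gave -0.84. The calcium channel subunit gene Cacna2d1 fell (-2.27 ± 0.20), as did Xntrpc (-2.26 ± 0.15). Adh7, an alcohol and retinol dehydrogenase, fell (-2.22 ± 0.13). All 6 were lower on every condensing array than on any round array.

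**Figure D1:**
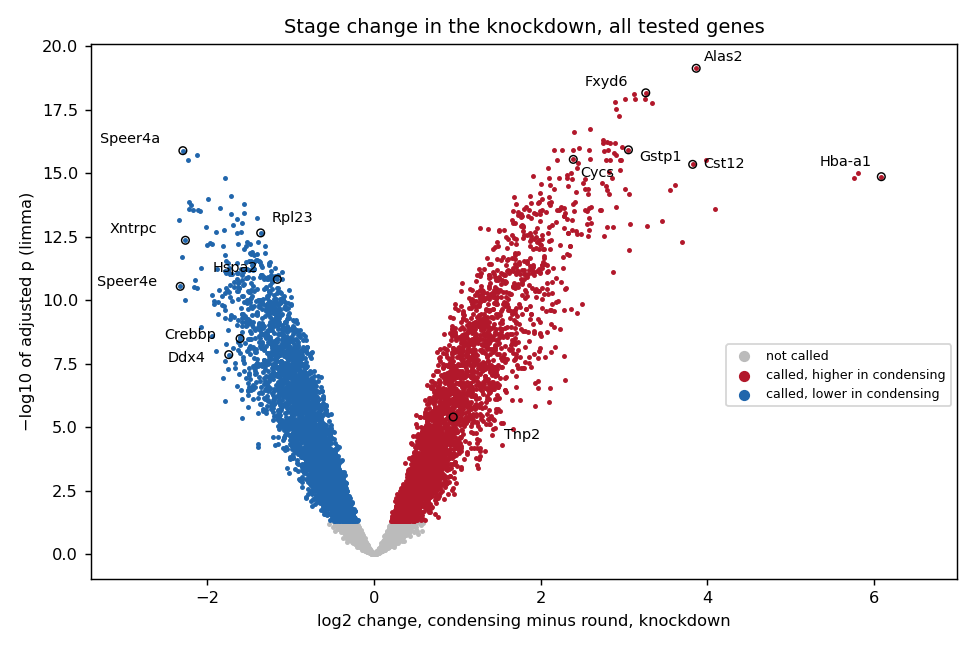
Change in log2 intensity from round to condensing knockdown spermatids (x axis) against the negative log10 of the limma adjusted p (y axis) for 10759 genes. Red points (3282) were called higher and blue points (3481) lower in condensing spermatids, grey points were not called, and circles mark named genes. The right arm reaches 6.09 (Hba-a1) while the left arm ends at -2.33 (Speer4e).

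Among genes of chromatin packaging, 8 of 16 tested members rose and 6 fell, against 30.5% up and 32.4% down over all tested genes (list median 0.21, 0.19 in wild type). Tnp2 read 11.92, 12.19 and 12.40 log2 (lowest, median and highest of 6 arrays) in condensing knockdown spermatids, against 10.57, 11.17 and 11.75 in round knockdown spermatids. The gene encodes a transition protein and rose by 0.95 ± 0.15 (adjusted p = 3.88e-06), with each condensing array above all round arrays. Tnp1, the other transition protein, did not pass the test (-0.13 ± 0.09, adjusted p = 0.22), and its arrays overlapped. The protamine gene Prm1 had overlapping arrays and fell (-0.22 ± 0.10, adjusted p = 0.0429), but 11 of 23 other settings lost this call. Tnp1 and Prm1 both turned positive (0.63 and 0.37) when arrays were scaled to the median of detected probes. Camk4, a kinase needed for protamine exchange, rose by 1.35 ± 0.12 (adjusted p = 7.74e-11). Nutm1, a partner of p300 in spermatid histone acetylation, fell (-1.50 ± 0.11, adjusted p = 2.72e-12). Brdt, the bromodomain protein that reads acetylated histones in spermatids, fell (-0.33 ± 0.12, adjusted p = 0.0215), and another Brdt probe changed by -1.07. The Brdt call was lost in 5 of 23 other settings, among them those without round array 8 or 9 or condensing array 22.

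Of the testis histone variants, 5 of 11 tested members rose and 2 fell (median 0.12, -0.13 in wild type). H2al2a, a variant that joins chromatin together with transition proteins, read 12.70, 12.78 and 12.89 log2 on condensing arrays, against 10.31, 11.13 and 11.79 on round arrays, with no overlap. It rose by 1.68 ± 0.20 (adjusted p = 2.15e-08), or 3.2-fold. H2bl1, a testis H2B variant, rose by 0.74 ± 0.14 (adjusted p = 5.07e-05). H3f3a, one of the genes of the replacement histone H3.3, fell (-0.43 ± 0.14, adjusted p = 0.00844), with overlapping arrays. In the list of acetylation writers, erasers and readers, 4 of 31 tested members rose and 14 fell (median -0.21, -0.27 in wild type). Its largest rise was Hdac6, a tubulin deacetylase (0.90 ± 0.16, adjusted p = 1.38e-05), and Crebbp was its largest fall. Kat8, the acetyltransferase of histone H4 lysine 16, did not pass the test (-0.10 ± 0.09, adjusted p = 0.328). Without round arrays 8 and 10, 7 members of this list rose and 13 fell.

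Among regulators of haploid transcription 3 of 17 tested members rose and 8 fell (median -0.19, -0.10 in wild type). Sox5, a transcription factor of spermatids, fell (-1.11 ± 0.10, adjusted p = 1.19e-10), with other probes at -0.61, -1.09 and -1.92. Zfp37, a zinc finger gene, fell too (-1.48 ± 0.15, adjusted p = 1.91e-09). Kif17, a kinesin that moves the CREM coactivator ACT in spermatids, rose by 0.98 ± 0.09 (adjusted p = 1.9e-10) on its main probe and by 0.78 on a second, while a further probe gave -2.51, so no direction can be given for the gene. Among genes of RNA storage and the chromatoid body, 4 of 28 tested members rose and 16 fell (median -0.51, -0.55 in wild type). Ddx4 read 7.90, 8.16 and 8.34 log2 (lowest, median and highest of 6 arrays) in condensing knockdown spermatids, against 9.34, 9.77 and 10.60 in round knockdown spermatids. Ddx4, a germ cell RNA helicase of the chromatoid body, fell (-1.74 ± 0.20, adjusted p = 1.36e-08), and a second probe gave -0.79. Piwil1, a piRNA-binding protein, went the other way and read 11.38, 11.62 and 11.79 log2 on condensing arrays, against 9.97, 10.33 and 10.72 on round arrays. It rose by 1.24 ± 0.12 (adjusted p = 4.54e-10), and its second probe by 1.22, so these chromatoid body genes moved in opposite directions within one list. Ybx2, an RNA-binding protein of stored messages, did not pass the test (-0.14 ± 0.08 (adjusted p = 0.141), and 0.17 and -0.04 on other probes).

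Of genes of the acrosome and of gamete fusion, 9 of 39 tested members rose and 24 fell (median -0.50, -0.62 in wild type). Spam1, a hyaluronidase of the sperm head, read 10.02, 10.17 and 10.30 log2 on condensing arrays, against 11.46, 11.85 and 12.40 on round arrays. It fell (-1.74 ± 0.13, adjusted p = 5.11e-12), and a second probe gave -1.01. Fndc3a, needed for adhesion of spermatids to Sertoli cells, rose by 1.73 ± 0.21 (adjusted p = 4.43e-08), but a second probe did not pass the test (-0.16). Izumo2, of the Izumo family, rose by 0.31 ± 0.12 (adjusted p = 0.0306). That call was lost in 6 of 23 other settings, among them those without round arrays 8 or 9 or condensing arrays 21 or 23. Of the sperm ADAM surface proteins, 2 of 17 tested members rose and 11 fell (median -0.52, -0.30 in wild type). Adam1b, a fertilin subunit, fell (-1.49 ± 0.13, adjusted p = 9.01e-11), Adam3 fell (-0.41 ± 0.12, adjusted p = 0.00407), and Adam21 rose by 0.55 ± 0.18 (adjusted p = 0.00937). Without round arrays 8 and 10, 7 of the ADAM genes fell instead of 11, and the call for Adam3 was lost. Adam3 was at 0.31 when arrays were scaled to the median of detected probes.

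Among axoneme genes, the core of the sperm tail, 2 of 38 tested members rose and 32 fell (median -0.72, -0.86 in wild type). Promoters of this list are shown because many ciliary genes carry an X-box, the site bound by RFX transcription factors. Of 34 axoneme genes with a RefSeq promoter (GRCm38.p6), 4 (11.8%) had an X-box match on either strand within 250 bases before the start, against 1.36% of 27025 promoters of all genes and 1.87% of those of tested genes. These 4 stretches of 80 bases are given 5′ to 3′ on the gene's strand, with the X-box in capitals. They were chosen for the match, not for their values.
Dnaic2 (chr11:114727339-114727418, plus strand): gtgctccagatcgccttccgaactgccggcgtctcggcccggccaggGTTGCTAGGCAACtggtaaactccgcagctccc
Dnaic1 (chr4:41569714-41569793, plus strand): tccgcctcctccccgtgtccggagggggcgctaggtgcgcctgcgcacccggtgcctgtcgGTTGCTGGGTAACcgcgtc
Spag16 (chr1:69826834-69826913, plus strand): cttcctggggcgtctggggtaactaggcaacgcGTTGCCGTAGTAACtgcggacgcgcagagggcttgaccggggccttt
Hydin (chr8:110266897-110266976, plus strand): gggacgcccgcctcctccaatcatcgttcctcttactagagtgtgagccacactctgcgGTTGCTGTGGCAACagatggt
A match is a description of letters and not a bound site. Dnaic2, an intermediate chain of the outer dynein arm, read 6.08, 6.32 and 6.69 log2 on condensing arrays, against 7.72, 7.97 and 8.35 on round arrays. It fell (-1.68 ± 0.14, adjusted p = 1.8e-11), or 3.2-fold, without overlap. Dnaic1, the other intermediate chain of that arm, fell (-1.10 ± 0.13, adjusted p = 4.46e-08), and Spag16, of the central pair, fell too (-0.82 ± 0.13, adjusted p = 1.9e-06). Hydin, also of the central pair, did not pass the test (-0.11 ± 0.14, adjusted p = 0.512), so these promoters with the same kind of match belonged to genes with different changes. Tcte3, a dynein light chain, fell (-0.63 ± 0.11, adjusted p = 9.2e-06) but was at 0.13 when arrays were scaled to the median of detected probes. Ropn1, a protein that binds the A-kinase anchors of the fibrous sheath, rose by 1.11 ± 0.23 (adjusted p = 0.000111).

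Among outer dense fibre and sheath genes, 7 of 30 tested members rose and 10 fell, against 30.5% up and 32.4% down over all tested genes (list median -0.05, -0.05 in wild type). The list's direction turned with the scaling: 21 members rose, at a median of 0.57, when arrays were scaled to the median of detected probes. Fsip1, a partner of the fibrous sheath, fell (-1.63 ± 0.13, adjusted p = 8.36e-12), with a second probe at -0.98. Spata18 rose by 0.61 ± 0.13 (adjusted p = 0.000203), and Odf1 and Odf2, components of the outer dense fibres, did not pass the test (-0.07 ± 0.08, adjusted p = 0.453, and -0.13 ± 0.10, adjusted p = 0.23). Further Odf2 probes ranged from -1.25 to 0.76. Of sperm channels and the cyclic AMP pathway, 4 of 20 tested members rose and 12 fell (median -0.71, -0.65 in wild type). Catsper2, a subunit of the sperm calcium channel, fell (-1.45 ± 0.14, adjusted p = 7.15e-10), and Pde4a, a phosphodiesterase, fell too (-1.77 ± 0.14, adjusted p = 7.33e-12). Prkar2a, a regulatory subunit of protein kinase A, read 8.88, 9.05 and 9.38 log2 on condensing arrays, against 6.41, 7.10 and 8.07 on round arrays. It rose by 1.86 ± 0.22 (adjusted p = 2.81e-08), the opposite direction to most of its list.

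Genes of the manchette and the perinuclear theca were near the share of all genes: 17 of 43 tested members rose and 15 fell, against 30.5% up and 32.4% down over all tested genes (list median 0.08, 0.08 in wild type), and the median turned to -0.14 when arrays were scaled to the median of all probes. Actl9, an actin-like protein of the theca, rose by 1.28 ± 0.13 (adjusted p = 7.88e-10), Clip4, a microtubule-binding protein, fell (-1.17 ± 0.10, adjusted p = 3.35e-11), and Actrt2, another actin-like protein, did not pass the test (0.16 ± 0.09, adjusted p = 0.137). Of the Speer family and other multicopy spermatid genes, 1 of 16 tested members rose and 11 fell (median -0.79, -0.97 in wild type). Copies of these families are alike in sequence and can share probes. The X-linked Ott rose by 1.70 ± 0.16 (adjusted p = 1.96e-10), while Ssty2 on the Y chromosome fell (-1.16 ± 0.11, adjusted p = 3.29e-10).

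**Figure D2:**
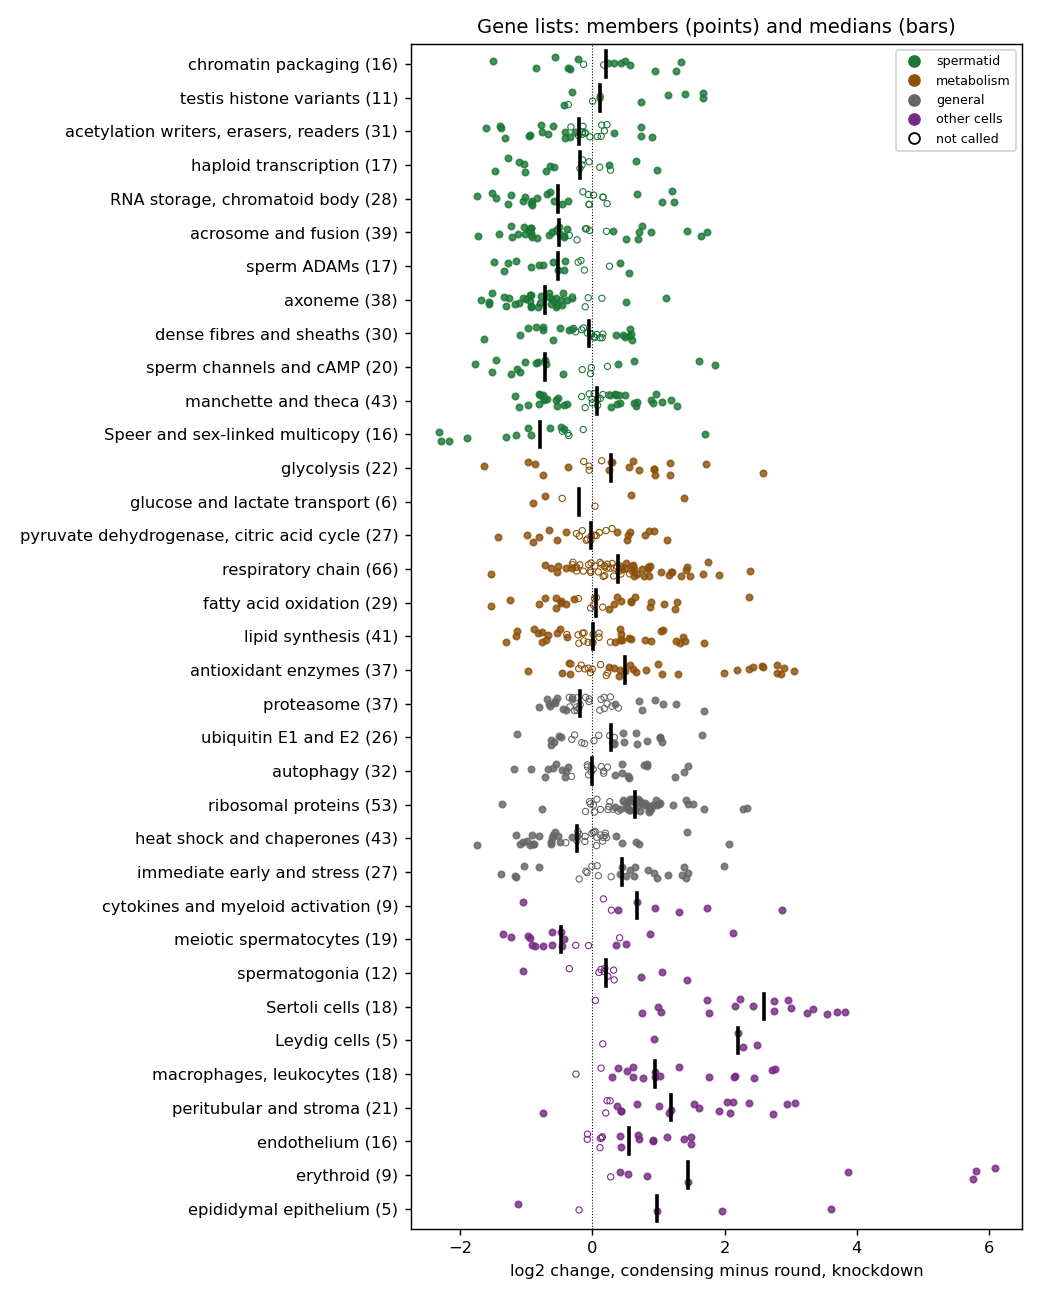
Change in log2 intensity from round to condensing knockdown spermatids (x axis) for the tested members of each gene list (rows, with the number tested). Filled points were called, open points were not, and black bars are list medians. Axoneme genes lie mostly left of 0 (median -0.72) and Sertoli cell markers right of it (median 2.59), while the packaging list spreads to both sides.

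For energy metabolism the data give pairs of somatic and testis isoforms. In glycolysis 13 of 22 tested members rose and 5 fell (median 0.29, 0.35 in wild type). Gapdh, the somatic glyceraldehyde phosphate dehydrogenase, read 9.27, 9.39 and 9.45 log2 on condensing arrays, against 7.26, 7.71 and 7.83 on round arrays. It rose by 1.73 ± 0.10 (adjusted p = 3.27e-14), and its testis counterpart Gapdhs rose by 0.56 ± 0.09 (adjusted p = 3.73e-06). Pgk1, the somatic phosphoglycerate kinase, rose by 1.18 ± 0.17 (adjusted p = 5.53e-07) and its testis counterpart Pgk2 by 0.25 ± 0.10 (adjusted p = 0.0303). The Pgk2 call did not hold in 6 of 23 other settings, those without round array 9, 11 or 12 or condensing array 21, 23 or 24. Lactate dehydrogenase showed another order. Ldha, the somatic subunit, read 12.73, 12.89 and 13.03 log2 on condensing arrays, against 13.38, 13.67 and 13.90 on round arrays. It fell (-0.74 ± 0.10, adjusted p = 2.7e-07), while Ldhc, the testis subunit, did not pass the test on its main probe (-0.05 ± 0.08, adjusted p = 0.622), near the top of the scale, and fell on 2 other probes (-0.31 and -0.32). Phosphofructokinase genes moved apart: Pfkl rose by 2.58 ± 0.16 (adjusted p = 5.85e-14), although a second probe did not pass the test (0.27), and Pfkp fell (-1.64 ± 0.16, adjusted p = 5.72e-10).

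Of glucose and lactate transport genes, 2 of 6 tested members rose and 2 fell (median -0.21), against 30.5% up and 32.4% down over all tested genes. The sign of that median turned to 0.15 when arrays were scaled to the median of detected probes. Slc2a3, the glucose transporter GLUT3, fell (-0.71 ± 0.12, adjusted p = 8.47e-06), and Slc2a8, the transporter GLUT8, fell too (-0.90 ± 0.13, adjusted p = 1.04e-06). Emb, a chaperone of lactate transporters, was not well above background on round arrays and was at least 2.09-fold higher in condensing spermatids (adjusted p = 2.43e-10). Such a bound sets the mean of the brighter group against the lowest signal above background. In the pyruvate dehydrogenase and citric acid cycle list, 8 of 27 tested members rose (29.6%) and 7 fell (25.9%), at a median of -0.01. These shares were near the 30.5% up and 32.4% down of all tested genes. Pdk1, a kinase that switches pyruvate dehydrogenase off, rose by 1.14 ± 0.13 (adjusted p = 2.22e-08), and Pdp1, a phosphatase that switches it on, fell (-1.42 ± 0.17, adjusted p = 3.54e-08), with a second probe at -0.74. Pdha1, the somatic E1 alpha subunit, rose by 0.57 ± 0.13 (adjusted p = 0.000398), and its testis counterpart Pdha2 had no probe that passed the filter. Mdh1b, a malate dehydrogenase, fell (-0.81 ± 0.10, adjusted p = 1.03e-07).

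In the respiratory chain 27 of 66 tested members rose and 7 fell (median 0.39, 0.17 in wild type). Without round arrays 8 and 10, which read low for this list, 22 rose and 12 fell, at a median of 0.13. Cycs, the somatic cytochrome c, read 9.32, 9.61 and 9.75 log2 on condensing arrays, against 6.99, 7.17 and 7.46 on round arrays. It rose by 2.39 ± 0.11 (adjusted p = 2.8e-16), or 5.24-fold, but a second probe did not pass the test (-0.02), and testis cytochrome c, Cyct, had no probe that passed the filter. Cox6b1, a subunit of cytochrome c oxidase, rose by 1.42 ± 0.25 (adjusted p = 1.99e-05), and its testis counterpart Cox6b2 fell (-0.40 ± 0.13, adjusted p = 0.0064) on its main probe, and a second probe gave -1.65. Atp5b, the beta subunit of ATP synthase, fell (-0.72 ± 0.09, adjusted p = 6.17e-08). Uqcrfs1, the Rieske protein of complex III, was not well above background on condensing arrays and was at least 2.02-fold lower there (adjusted p = 7.09e-13).

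The cyclic AMP response element (CRE, letters TGACGTCA, read on both strands) is a site bound by CREB and CREM, which can recruit Cbp and p300. A match does not show that any of these proteins is present there in spermatids. Among the genes named here, Cycs, Kif17, Ldha and Uqcrfs1 had a CRE within 250 bases before the start, and they are shown because their transcripts moved in different directions. The stretches are from RefSeq (GRCm38.p6), 5′ to 3′ on the gene's strand, with the CRE in capitals.
Cycs (chr6:50566695-50566774, minus strand): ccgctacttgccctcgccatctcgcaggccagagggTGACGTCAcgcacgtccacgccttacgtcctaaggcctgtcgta
Kif17 (chr4:138262129-138262208, plus strand): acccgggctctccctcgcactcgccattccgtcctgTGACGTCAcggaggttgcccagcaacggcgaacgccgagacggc
Ldha (chr7:46845724-46845803, plus strand): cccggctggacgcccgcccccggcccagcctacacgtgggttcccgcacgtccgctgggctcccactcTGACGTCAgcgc
Uqcrfs1 (chr13:30545317-30545396, minus strand): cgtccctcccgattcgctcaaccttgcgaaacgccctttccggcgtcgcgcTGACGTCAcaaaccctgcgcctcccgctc
The CRE lay 169 bases before the start in Cycs, 86 in Kif17, 12 in Ldha and 29 in Uqcrfs1. Kif17 also had an X-box, 73 bases before its start and apart from the CRE. Cycs rose on its main probe, Ldha and Uqcrfs1 fell, and the probes of Kif17 disagreed. A CRE was found in 1.77% of all promoters and in 2.97% of those of tested genes. It was found in 2.49% of promoters of genes at least 2-fold higher and in 4.59% of those at least 2-fold lower in condensing knockdown spermatids. The corresponding shares for the X-box were 0.651% and 4.02%.

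In fatty acid oxidation 13 of 29 tested members rose and 10 fell, against 30.5% up and 32.4% down over all tested genes (list median 0.06, 0.11 in wild type), with Echs1, the enoyl-CoA hydratase, up by 2.38 ± 0.12 (adjusted p = 1.72e-15), Etfb, an electron transfer flavoprotein subunit, down (-1.53 ± 0.11, adjusted p = 3.18e-12) and Crat, carnitine acetyltransferase, down (-0.48 ± 0.14, adjusted p = 0.00435). The call for Crat was lost without round arrays 8 and 10. In lipid synthesis 16 of 41 tested members rose and 12 fell, against the same shares of all genes (list median 0.01, 0.06 in wild type). Ebp, a sterol isomerase of cholesterol synthesis, rose by 1.69 ± 0.16 (adjusted p = 2.43e-10) but was detected on 1 of 6 round arrays, and Sgms2, a sphingomyelin synthase, fell (-1.30 ± 0.14, adjusted p = 6.39e-09). Ptdss2, a phosphatidylserine synthase, fell (-0.38 ± 0.11, adjusted p = 0.00407) on its main probe, and another probe rose by 0.60. Both medians turned negative (-0.14 and -0.20) when arrays were scaled to the median of all probes.

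Of antioxidant enzymes, 23 of 37 tested members rose and 4 fell (median 0.50, 0.38 in wild type). Gstp1, a glutathione transferase, read 8.74, 8.88 and 9.02 log2 on condensing arrays, against 5.42, 5.87 and 6.18 on round arrays. It rose by 3.05 ± 0.14 (adjusted p = 1.18e-16), or 8.3-fold, and a second probe by 2.52. Txnrd3, a thioredoxin reductase of spermatids, fell (-0.97 ± 0.14, adjusted p = 5.77e-07). Gpx4, the glutathione peroxidase of the sperm mitochondrial sheath, did not pass the test on its main probe (-0.03 ± 0.09, adjusted p = 0.801), while 2 other probes rose by 0.59 and 0.46. Markers of other cells, described below, moved in the same direction as this list, and their part in it was not tested.

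Of the proteasome genes, 7 of 37 tested members rose and 10 fell (median -0.18, -0.24 in wild type). Psma7, a core subunit, rose by 1.70 ± 0.20 (adjusted p = 2.03e-08), and the ATPase gene Psmc3 fell (-0.81 ± 0.10, adjusted p = 3.98e-08). Psmc2, another ATPase of the proteasome, fell (-0.40 ± 0.09, adjusted p = 0.000209), although a further probe rose by 0.34. Without round arrays 8 and 10, 16 proteasome genes fell, and scaling to the median of detected probes turned the list's median to 0.06. In the ubiquitin list 11 of 26 tested members rose and 6 fell (median 0.28, 0.19 in wild type), a median that became -0.10 when arrays were scaled to all probes. The conjugating enzyme gene Ube2g2 rose by 1.65 ± 0.21 (adjusted p = 6.11e-08) and Ube2k by 0.67 ± 0.12 (adjusted p = 1.01e-05), with other Ube2k probes at 0.87 and 1.34. Ube2o fell (-1.14 ± 0.16, adjusted p = 4.8e-07). Of autophagy genes 11 of 32 tested members rose and 10 fell, close to the 30.5% and 32.4% of all tested genes, and the median of -0.0003 turned to 0.16 or -0.32 with the scaling. Atg9a rose by 1.45 ± 0.10 (adjusted p = 7.93e-13) on its main probe and by 0.43 on a second. The cargo receptor gene Nbr1 rose by 0.83 ± 0.13 (adjusted p = 1.61e-06), and Atg13 fell (-1.18 ± 0.13, adjusted p = 5.4e-09).

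Of ribosomal protein genes, 38 of 53 tested members rose and 2 fell (median 0.64, 0.46 in wild type). Rpl39 rose by 2.34 ± 0.17 (adjusted p = 1.66e-12). Rpl41 did not pass the test (0.25 ± 0.13, adjusted p = 0.0902). Rpl23 fell (-1.36 ± 0.09, adjusted p = 2.2e-13) on its main probe, but other probes rose by 0.67 and 0.41. Round arrays 8 and 10 averaged 10.2 and 10.5 log2 over this list, below the other round arrays, and without them 25 members rose at a median of 0.42. Of heat shock and chaperone genes, 6 of 43 tested members rose and 19 fell (median -0.23, -0.17 in wild type), although 17 rose at a median of 0.23 when arrays were scaled to the median of detected probes. Hspa2, the germ cell HSP70 that is abundant in spermatids, read 13.35, 13.56 and 13.72 log2 on condensing arrays, against 14.50, 14.76 and 14.85 on round arrays. It fell (-1.16 ± 0.09, adjusted p = 1.48e-11), and a second probe gave -1.44. Hspa8, the general HSP70, rose by 0.44 ± 0.10 (adjusted p = 0.000274) and by 0.56 on a second probe, although a further one did not pass the test (0.27). Hspb1, a small heat shock protein, rose by 2.07 ± 0.19 (adjusted p = 2.57e-10), Hspa4l fell (-1.75 ± 0.22, adjusted p = 5.2e-08) on its main probe but a second did not pass the test (-0.14), and Bag1, a cochaperone, did not pass the test (0.16 ± 0.09, adjusted p = 0.117).

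**Figure D3:**
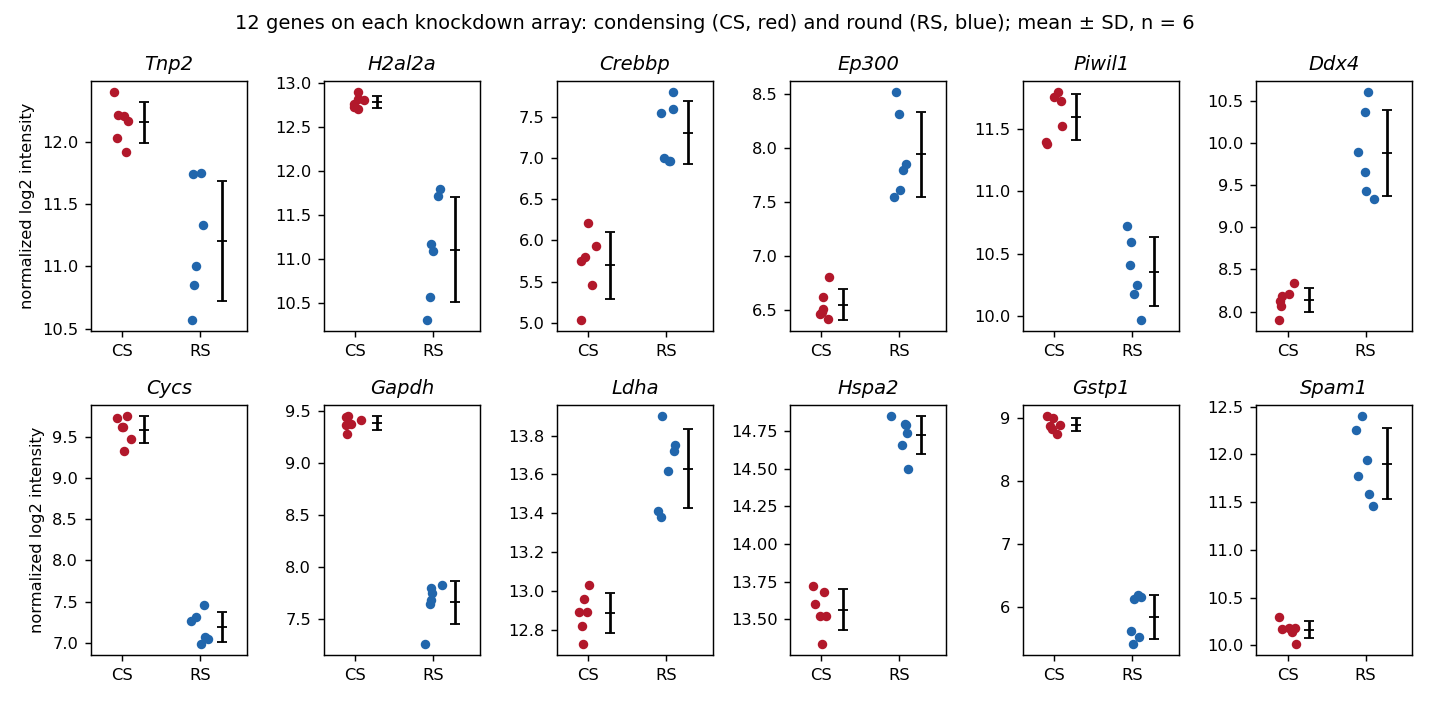
Normalized log2 intensity (y axis, own range per panel) of 12 genes on 6 condensing (CS, red) and 6 round (RS, blue) knockdown arrays, with mean and SD at the right of each group. No panel shows overlapping groups, but the genes were picked from those named, and others of these, such as Tnp1 and Prm1, did overlap. Over all tested genes the groups did not overlap for 19.5% (condensing higher) and 21.2% (condensing lower). Cycs, Gapdh and Gstp1 lie higher in condensing spermatids, while Ddx4, Ldha, Hspa2 and Spam1 lie lower.

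Markers of other cell types rose with stage. Over the lists of Sertoli, Leydig, peritubular and stromal, endothelial, leukocyte, erythroid and epididymal cells and of myeloid activation, 80 of 100 tested genes rose and 3 fell, at a median of 1.08. Of the Sertoli cell markers, 17 of 18 tested members rose and 0 fell (median 2.59, 2.54 in wild type). Their summed intensity ran from 26670 to 29190 on condensing and from 2367 to 4451 on round knockdown arrays. Cst12 read 10.62, 10.81 and 11.01 log2 on condensing arrays, against 6.20, 7.10 and 7.65 on round arrays, and Aard rose by 3.01 ± 0.16 (adjusted p = 3.99e-15). Of the erythroid markers, 8 of 9 tested members rose and 0 fell, and their summed intensity was 64940 to 75570 on condensing and 2206 to 5034 on round knockdown arrays. Car2, carbonic anhydrase, rose by 1.44 ± 0.12 (adjusted p = 3.92e-11). It already read 10.62 to 11.56 log2 on round knockdown arrays, where the erythroid list averaged 6.44 to 7.28. Leydig cell markers rose in 4 of 5 cases, with Insl3, a Leydig cell hormone, up by 2.49 ± 0.22 (adjusted p = 1.41e-10). Of the Sertoli markers, 12 were detected on all 6 round knockdown arrays and 1, Shbg, on none. Of the erythroid markers, 5 were detected on all 6 and 1, Slc4a1, on none.

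Of leukocyte markers, 16 of 18 tested members rose and 0 fell (median 0.95, 1.47 in wild type). Cd74, the invariant chain of antigen presentation, rose by 2.76 ± 0.18 (adjusted p = 2.92e-13), with other probes at 2.85 and 1.64. Aif1 rose by 0.62 ± 0.14 (adjusted p = 0.000286), with other probes at 1.26 and 0.63. It already read 11.89 to 12.72 log2 on round knockdown arrays, where the leukocyte list averaged 6.20 to 6.63. Of peritubular and stromal markers, 17 of 21 tested members rose and 1 fell (median 1.19, 0.87 in wild type). Mgp, matrix Gla protein, rose by 3.06 ± 0.21 (adjusted p = 9.92e-13) and Actg2, a smooth muscle actin, by 0.38 ± 0.10 (adjusted p = 0.00189). Actg2 already read 12.91 to 13.5 log2 on round knockdown arrays, where the stromal list averaged 5.96 to 6.48. Which cells give the bright signals of Actg2, Aif1 and Car2 was not tested. Fn1, fibronectin, was at least 1.14-fold lower (adjusted p = 2.51e-05), not well above background on condensing arrays. Of endothelial markers, 10 of 16 tested members rose and 0 fell (median 0.56, 0.88 in wild type). Egfl7 rose by 1.49 ± 0.13 (adjusted p = 4.6e-11) on its main probe and by 0.87 on a second, while a further one gave -0.20. Among epididymal genes 3 of 5 rose and 1 fell. Wfdc10 rose by 3.61 ± 0.19 (adjusted p = 2.84e-15) and Eppin by 1.96 ± 0.17 (adjusted p = 4.19e-11), and Cuzd1 fell (-1.13 ± 0.18, adjusted p = 3.27e-06). Detected on all 6 round knockdown arrays were 10 leukocyte, 11 stromal and 3 endothelial markers, and on none Myh11, Nid1, Eng, Emcn and Mmrn2 (named for being undetected). The share of these cells in either preparation was not measured, and the part of such cells in the rises of other lists was not tested.

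Markers of earlier germ cells moved in both directions. Of the meiotic genes, 4 of 19 tested members rose and 12 fell (median -0.47, -0.55 in wild type). Rec8, a meiotic cohesin, fell (-1.35 ± 0.11, adjusted p = 1.02e-11), while the synaptonemal complex genes Syce2 and Syce3 rose by 2.13 ± 0.18 (adjusted p = 5.12e-11) and 0.87 ± 0.20 (adjusted p = 0.000493). Among spermatogonial markers 3 of 12 rose (25%), 1 fell (8.33%) and 8 were not called. Over all tested genes 30.5% rose and 32.4% fell, so the share that rose was near that of all genes. With arrays scaled to the median of detected probes, 10 of these markers rose. Uchl1 rose by 1.43 ± 0.14 (adjusted p = 1.08e-09) and Sohlh1 by 0.74 ± 0.15 (adjusted p = 0.000142), and Kit, a receptor also known in a truncated spermatid form, fell (-1.04 ± 0.14, adjusted p = 1.99e-07). Across 11 spermatid lists together, 22.3% of 273 genes rose and 53.8% fell, at a median of -0.41.

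The same step in wild-type spermatids used other arrays throughout. There, 3263 genes rose (30.3%) and 3641 fell (33.8%). Of the genes that rose in the knockdown, 86.4% also rose in wild type (2835 genes, 86.9% of the wild-type rises). Of those that fell in the knockdown, 89.9% also fell in wild type (3129 genes, 85.9% of the wild-type falls). A further 444 genes were called higher and 352 lower in the knockdown alone, and limma's test of the difference between the stage changes called 0 of them, with 154 at an unadjusted p under 0.05. The 3 genes called higher in the knockdown and lower in wild type were E330020D12Rik, Kif21a and Nav1, chosen after their values were seen, and their differences of 1.23, 1.18 and 0.88 did not pass that test (adjusted p = 0.248, 0.0560 and 0.314). The median 95% interval of a difference reached 0.405 log2 (1.32-fold) to either side, before adjustment for the number of genes, so a difference that was not called is not shown to be absent.

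The difference between the stage changes was called for 5 genes (0.0465%), and 748 had an unadjusted p under 0.05. With 1 array left out, the count ran from 2 (without round wild-type array 4, 5 or 6) to 11 (without condensing knockdown array 20). All 5 changed less upward or more downward in the knockdown. Fos, an immediate early transcription factor, read 6.19, 6.27 and 6.45 log2 on condensing and 5.26, 5.67 and 5.93 on round knockdown arrays. In wild type it read 7.26, 7.89 and 8.53 on condensing and 5.29, 5.56 and 5.67 on round arrays. The round groups overlapped, while the condensing knockdown arrays lay below all condensing wild-type arrays. Fos rose by 0.63 ± 0.16 (adjusted p = 0.00103) in the knockdown and by 2.31 in wild type, a difference of -1.69 (adjusted p = 0.000165). Zfp36, an immediate early gene whose protein destabilises cytokine messages, read 6.36, 6.46 and 6.79 on condensing and 5.18, 5.68 and 5.75 on round knockdown arrays, and 7.03, 7.36 and 7.77 on condensing and 5.28, 5.50 and 5.65 on round wild-type arrays. It rose by 0.93 ± 0.13 (adjusted p = 3.7e-07) in the knockdown and by 1.89 in wild type, a difference of -0.96 (adjusted p = 0.0300). The condensing groups again did not overlap between genotypes.

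Ccl4, a chemokine of macrophages, read 4.94, 5.44 and 5.98 on condensing and 4.40, 4.68 and 5.37 on round knockdown arrays, and 6.75, 7.29 and 7.81 on condensing and 4.50, 4.64 and 4.83 on round wild-type arrays. It was detected on 5 condensing and 2 round knockdown arrays, and on 6 condensing and 0 round wild-type arrays. It rose by 0.67 ± 0.18 (adjusted p = 0.00175) in the knockdown and was at least 4.74-fold higher in condensing than in round wild-type spermatids, where the round probe was not above background (adjusted p = 4.13e-13). The difference was called (adjusted p = 0.000150), but its size is not exact, since it is set against round values mostly not above background. Gria1, a glutamate receptor subunit, read 5.08, 5.80 and 6.10 on condensing and 4.97, 5.38 and 5.67 on round knockdown arrays, and 6.60, 7.08 and 7.77 on condensing and 5.14, 5.37 and 5.56 on round wild-type arrays. Its rise of 0.39 ± 0.17 (adjusted p = 0.0483) in the knockdown was lost in 16 of 23 other settings, and the difference from the wild-type rise of 1.71 was -1.32 (adjusted p = 0.0260). Prf1, the pore-forming perforin of cytotoxic lymphocytes, read 5.77, 6.25 and 6.46 on condensing and 7.47, 7.98 and 8.33 on round knockdown arrays, and 6.61, 6.90 and 7.08 on condensing and 7.27, 7.42 and 7.99 on round wild-type arrays. It changed by -1.77 ± 0.15 (adjusted p = 3.35e-11) in the knockdown and by -0.65 in wild type, a difference of -1.12 (adjusted p = 0.0276). The differences of Ccl4 and Fos were called in all 34 other settings, those of Gria1, Prf1 and Zfp36 in 26, 21 and 18. The p-values are from the limma fit.

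Fos and Zfp36 are induced through serum response elements, whose core is the CArG box, and their proximal promoters (RefSeq, GRCm38.p6, 5′ to 3′) are shown because both rose less in the knockdown. In Zfp36 the CArG box is in capitals and begins 58 bases before the start. In Fos no CArG box lay within 250 bases, and bases farther upstream were not searched, so the gene is not shown to lack one. The TATA box of Fos (letters TATAAA) is in capitals, 33 bases before the start. No full CRE lay within 250 bases in Fos, but the printed stretch holds its first letters, tgacgt. The shorter tgacg, on either strand, is in 29% of promoters of tested genes, and the share with tgacgt was not counted. Whether this stretch is bound was not tested.
Zfp36 (chr7:28379242-28379321, minus strand): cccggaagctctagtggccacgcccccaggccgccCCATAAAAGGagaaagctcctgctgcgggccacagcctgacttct
Fos (chr12:85473810-85473889, plus strand): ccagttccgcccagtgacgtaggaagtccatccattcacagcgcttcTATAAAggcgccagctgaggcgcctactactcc
A CArG box was found in 1.62% of all promoters and 1.53% of those of tested genes, and in 2 of 24 promoters of the immediate early and stress list. In that list 15 of 27 tested members rose and 5 fell (median 0.45, 0.58 in wild type). Ddit4, a stress-induced inhibitor of mTOR signalling, rose by 1.99 ± 0.15 (adjusted p = 8.63e-12), and Btg1, an antiproliferative gene, fell (-1.39 ± 0.10, adjusted p = 2.79e-12). Of cytokine and myeloid activation genes, 6 of 9 tested members rose and 1 fell (median 0.67, 1.55 in wild type). Lcn2, lipocalin, rose by 2.87 ± 0.22 (adjusted p = 7.32e-12), and Tnfaip2 fell (-1.05 ± 0.14, adjusted p = 1.61e-07). Leukocyte markers had a median rise of 0.95 in the knockdown and 1.47 in wild type. Their mean log2 intensity was 7.428 to 7.885 on condensing knockdown and 7.639 to 8.05 on condensing wild-type arrays. Their summed intensity was 12500 to 14970 and 11540 to 15110 in the same order, but bright members such as Aif1 weigh most in a sum. Prf1 fell with stage in the knockdown (-1.77), while 16 of 18 leukocyte markers rose and 0 fell. The part of leukocytes in the differences of Ccl4 and Prf1 was not tested.

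**Figure D4:**
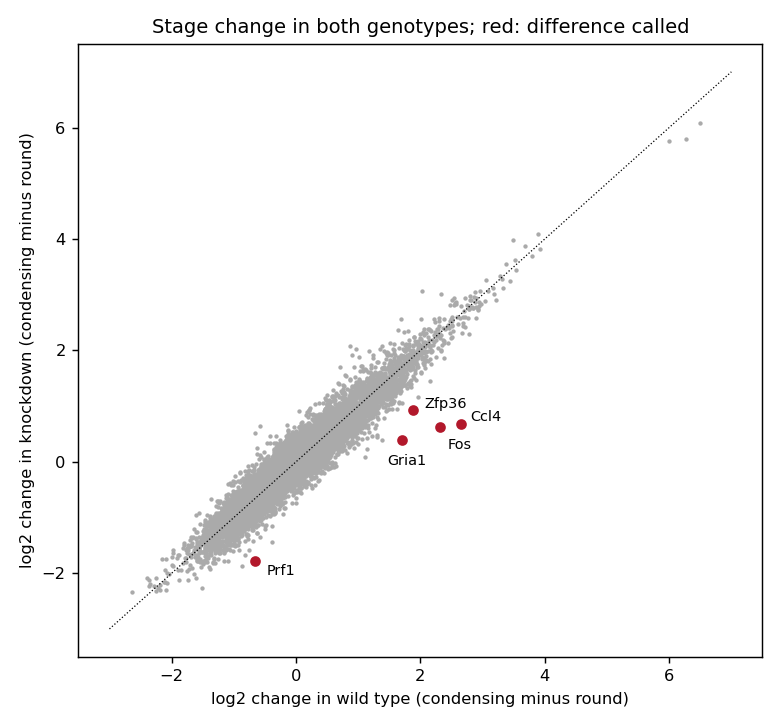
Stage change in the knockdown (y axis) against the stage change in wild type (x axis), both in log2 and condensing minus round, for 10759 genes. Most points follow the dotted line of equal change, and the 5 genes whose difference was called (red) lie below it.

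**Figure D5:**
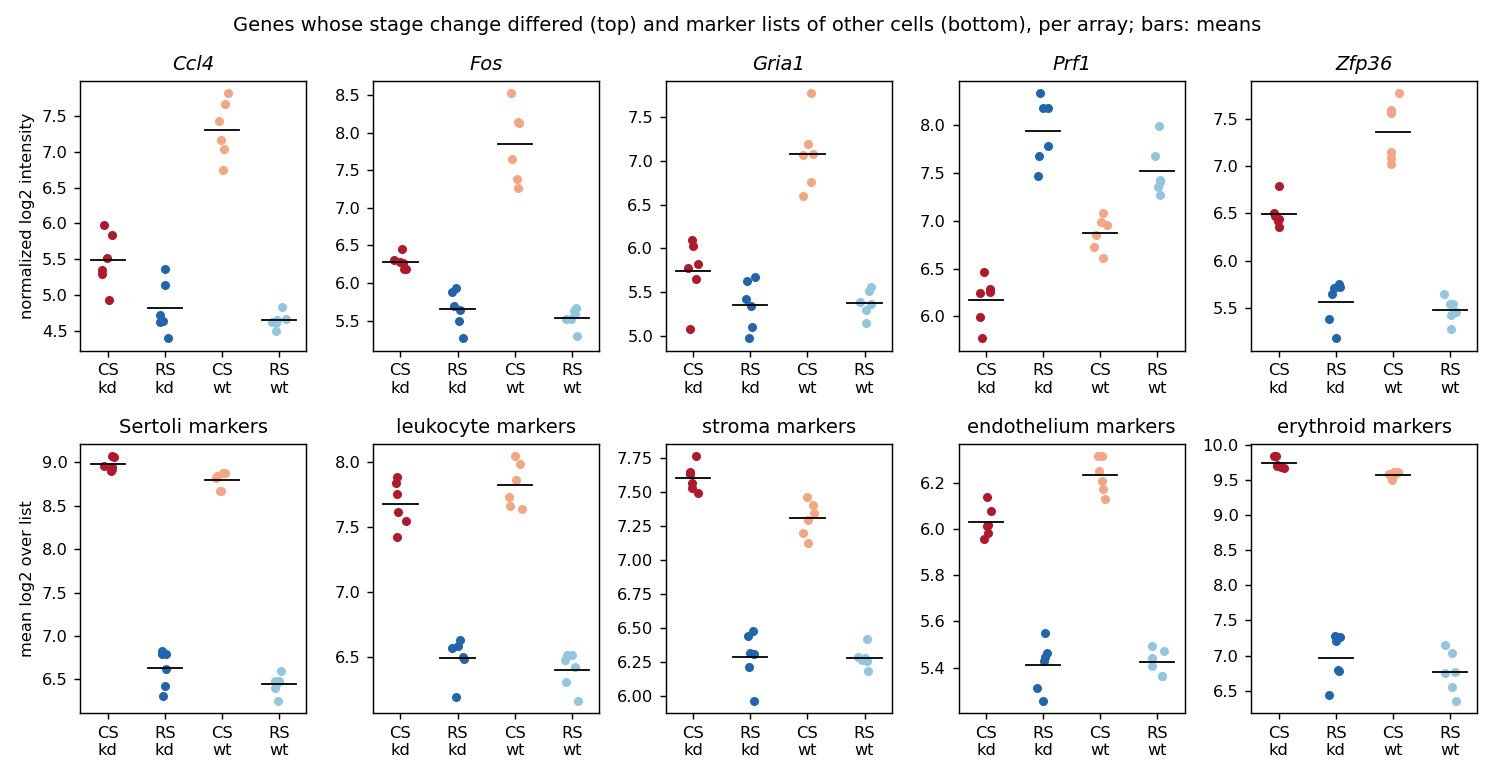
Upper row: normalized log2 intensity of the 5 genes whose stage change differed, on condensing (CS) and round (RS) arrays of the knockdown (kd) and wild type (wt), 6 arrays a group, with bars at the means. Lower row: mean log2 intensity over each marker list on the same arrays. Ccl4, Fos, Gria1, Prf1 and Zfp36 are lower on condensing knockdown than on condensing wild-type arrays, and all marker lists are higher on condensing than on round arrays in both genotypes.

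Genes were also counted by chromosome. Of 342 X-linked genes, 43.9% rose and 27.8% fell, at a median of 0.14, and 22.8% rose at least 2-fold. Of 10386 autosomal genes, 30.1% rose and 32.5% fell, at a median of -0.01, and 10.1% rose at least 2-fold. Of 15 Y-linked genes 3 rose and 10 fell, at a median of -0.94. Most X-linked genes are silenced in meiosis and only partly active in spermatids. The members of the X-linked set include markers of other cells such as Alas2, whose part in the balance was not tested. These are counts of genes, which are not independent replicates. Uncharacterised RIKEN testis clones rose in 38.1% and fell in 28.5% of 239 cases.

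Probes of the same gene did not always agree. Of 3617 genes with several kept probes, 224 (6.19%) had probes called in opposite directions, as Kif17 did, and the median range between probes of a gene was 0.345 log2. Spermatid genes often have testis isoforms, and the array annotation used here does not say which transcript a probe matches.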

How the data were processed

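Messenger RNA of mouse round and condensing spermatids, knockdown and wild type, was measured on 24 bead arrays. Per the file headers, the deposited non-normalized table holds the mean bead intensity of each probe on a linear scale. Per the file headers, it also holds a detection p-value, which compares each probe with negative control beads. The authors deposited a second table of intensity values whose distributions match across arrays (quantile normalized). The sources used here name neither software nor background handling.

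The fits used the non-normalized table: normexp background correction inferred from detection p-values, an offset of 16, quantile normalization and log2 (limma 3.58.1, R 4.3.3). A probe had to be detected (p under 0.05) on 6 or more arrays, which left 19086, of which 3143 had no gene symbol and 10 had several. The probe with the highest mean stood for each symbol, giving 10759 genes, and 99.9% of symbols were found in RefSeq. A limma model of 4 group means gave both stage changes and their difference, with two-sided moderated tests and Benjamini-Hochberg adjustment. No slide is given, so it could not be tested as a batch. With 6 arrays per group, the median 95% interval of a stage change was 0.286 log2 (1.22-fold) to either side. The model was tested on simulated data.

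The groups, the 35 gene lists and the rule for named genes were chosen with earlier results of these data known. The rule names the targeted and packaging genes, the 6 largest called rises and falls with and without marker lists of other cells, the largest rise, largest fall and brightest member of each list, isoform pairs, and up to 6 genes per direction of the difference. Promoters were searched from 250 bases before the start on both strands. Alternatives covered scaling, background, offset, filter, probe choice, array weights, the authors' table, the knockdown arrays alone, arrays 8 and 10, and each array left out.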

Additional observations from a re-analysis of the deposited data

Results flagged for a closer look

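In 11 of 260 groups of 6 arrays (4.23%), the highest or lowest array lay far from the others. Chance flags about 1 in 20 groups. The 6 cases among round knockdown spermatids all came from arrays 8 and 10. Array 10 was high for Zfp37 (7.79 log2, the others 6.78 to 7.13) and Rpl23 (15.02, the others 14.72 to 14.79). It was low for Cd74 (5.94, the others 7.02 to 7.36), Car2 (10.62, the others 11.25 to 11.56) and Gapdh (7.26, the others 7.64 to 7.83). Array 8 was high for Btg1 (12.59, the others 11.98 to 12.17). The 5 cases among condensing knockdown spermatids came from 3 arrays. Array 20 was low for Speer4a (7.40, the others 7.76 to 7.92) and Ddit4 (6.69, the others 7.10 to 7.24). Array 19 was low for Pdk1 (5.85, the others 6.39 to 6.65) and high for Ptdss2 (11.89, the others 11.63 to 11.70). Array 21 was high for Zfp36 (6.79, the others 6.36 to 6.50).

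The stage change of 5 genes differed between knockdown and wild type by the interaction test of limma. The knockdown change minus the wild-type change was -1.99 for Ccl4, -1.69 for Fos, -1.32 for Gria1, -1.12 for Prf1 and -0.96 for Zfp36. The value for Ccl4 is not exact, since its probe was detected on 2 of 6 round knockdown and 0 of 6 round wild-type arrays. Among the next genes by p, chosen after their values were seen, these did not pass: Htra3, a serine protease (1.06, adjusted p = 0.0556), Il1b, a cytokine (-0.99, adjusted p = 0.0556), Emcn, an endothelial sialomucin (-0.72, adjusted p = 0.0560), and Kif21a, a kinesin (1.18, adjusted p = 0.0560).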

How the results depend on the processing

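Of 135 results on named genes, 100 kept their direction and their side of the threshold in each setting tried, and 13 turned direction in at least 1. With scaling to the median of detected probes, 11 turned: Tnp1 (0.63), Prm1 (0.37), Kat8 (0.22), Ybx2 (0.62), Adam3 (0.31), Tcte3 (0.13), Odf1 (0.45), Ldhc (0.38), Gpx4 (0.62), Psmc2 (0.34) and Odf2 (0.53). Scaling to the median of all probes, chosen after seeing the data, turned Tnp1 (0.15), Ybx2 (0.15), Gpx4 (0.14) and Odf2 (0.056). The mean over all probes of a gene turned Kif17 (-0.25), Ptdss2 (0.11) and Gpx4 (0.34). Gpx4 ran from -0.082 (without round array 8) to 0.00032 (without round array 9) when 1 array was left out. Genes at least 2-fold higher numbered 710 with all-probe median scaling, 451 without background correction and 485 in the authors' table. Those at least 2-fold lower numbered 1826, 269 and 303 in the same order, and 545 with an offset of 50. Fewer 2-fold changes without background correction follow from its construction, since background compresses low values. The difference between the stage changes was called for 2 genes with median scaling, 3 with all-probe median scaling, 8 without background correction, 11 without a filter, 16 with array weights and 8 with the mean over probes, and the cause was not tested. With 1 array left out, 2 (without round wild-type array 4, 5 or 6) to 11 (without condensing knockdown array 20) were called, 3174 to 3277 genes rose and 3386 to 3480 fell. The rise of Fos in the knockdown was not called without background correction. The labels number the arrays through the series and pair no round sample with a condensing sample, so no paired analysis was possible. Whether such samples share an animal or preparation is not known. Probes near background or near the top of the scale limit what a fold can show.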
